A study of Mus musculus with 10 samples.

Results

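Transcripts of 35 genes of glucose transport, glycolysis and the pentose phosphate pathway were followed in CD31+ cells isolated with magnetic beads from hearts of male C57BL/6J mice. The genes were chosen by name and located in the count table through their Ensembl identifiers, and all 35 of them were found among the 46983 genes listed there. They fell into 6 arms: 5 glucose transporter genes with Txnip, 9 genes of upper glycolysis, 5 of fructose 2,6-bisphosphate turnover, 6 of lower glycolysis, 3 of lactate handling and 7 of the pentose phosphate pathway. From 8 weeks of age, 5 mice received a control diet with 11.6% of its energy as fat and 5 received a ketogenic diet with 89.5% of its energy as fat, for 14 days. Each mouse gave 1 library of 50-base single reads from a full-length cDNA kit that does not record the strand. The study describes the control animals as littermates, and which mice shared a litter is not given in the sources used here.

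Glucose enters endothelial cells by facilitated transport, is trapped as glucose 6-phosphate by hexokinase, and is split and oxidized to pyruvate in the cytosol, where lactate dehydrogenase regenerates NAD+. Phosphofructokinase is the main gate of the pathway and is activated by fructose 2,6-bisphosphate, the product of the PFKFB enzymes. A side branch at glucose 6-phosphate, the pentose phosphate pathway, yields NADPH and ribose for nucleotides. Endothelial cells are known for high glycolysis relative to mitochondrial respiration, and sprouting vessels depend on it. A ketogenic diet supplies almost no carbohydrate, and ketone bodies and fatty acids take its place as circulating fuels.

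Between 10885154 and 12206734 reads were counted per mouse on the control diet and between 11108020 and 12710861 on the ketogenic diet. Endothelial markers, among them Pecam1, Cdh5 and Kdr, summed to 54266 to 57525 normalized counts on the control diet and 53133 to 60221 on the ketogenic diet. A normalized count is a count scaled by edgeR's TMM factors to the average library. Markers of other cells were also present. The summed cardiomyocyte markers ran from 6761 to 8352 on the control diet and from 7483 to 10518 on the ketogenic diet, with all 10 markers above 0 in log2 fold change and none called. The summed platelet markers ran from 4952 to 8086 on the control diet and from 2267 to 5832 on the ketogenic diet, with all 5 below 0 and none called. The summed macrophage markers reached 9104 in control mouse 1, against 2336 to 4527 in the other 9 mice, and 7 of the 8 tested macrophage markers were below 0 (median log2 fold change −0.49) with none called. All 5 neutrophil markers were below 0 and none was called. In the other lists (fibroblasts, pericytes and smooth muscle, lymphocytes, red cells, adipocytes and mesothelium) 1 marker was called, the B cell gene Cd79a (log2 fold change −0.46, edgeR adjusted p = 0.0221), in a lymphocyte list with 3 markers above 0 and 3 below, and the adipocyte markers Adipoq, Plin1, Cidec and Lep had too few reads to be tested. The part of these cells in the results below was not tested. In such bulk samples, fewer cells of a type and less RNA per cell cannot be told apart.

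Of the 35 genes, 1 was called between the diets at an adjusted p-value under 0.05, which is 2.86% of them, against 1.34% of the 15949 genes tested (edgeR quasi-likelihood test, Benjamini-Hochberg adjustment over all tested genes). That gene was Slc2a1, the main endothelial glucose transporter, and it was lower on the ketogenic diet. Another 5 genes were lower at an unadjusted p-value under 0.05, namely Slc2a3, Gpi1, Pfkp, Eno1 and Ldha, so that 6 of 35 or 17.1% were lower at that level, against 9.26% of all tested genes. Pfkfb1 and Pgls were higher at that level, which is 2 of 35 or 5.71%, against 8.57% of all tested genes. None of these 7 passed the adjustment. The normalized counts of the diets did not overlap for 2 of the 35 genes, Slc2a1 and Pfkp, or 5.71%, against 4.34% of all tested genes. In all, 24 genes had a log2 fold change below 0 and 11 above, with a median of −0.05, beside a median of −0.01 and a share of 51.4% below 0 among all tested genes. These 24 include Txnip, Aldoa, Pkm and Taldo1, whose counts varied less between mice than the library totals did, as given below.

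**Figure D1:**
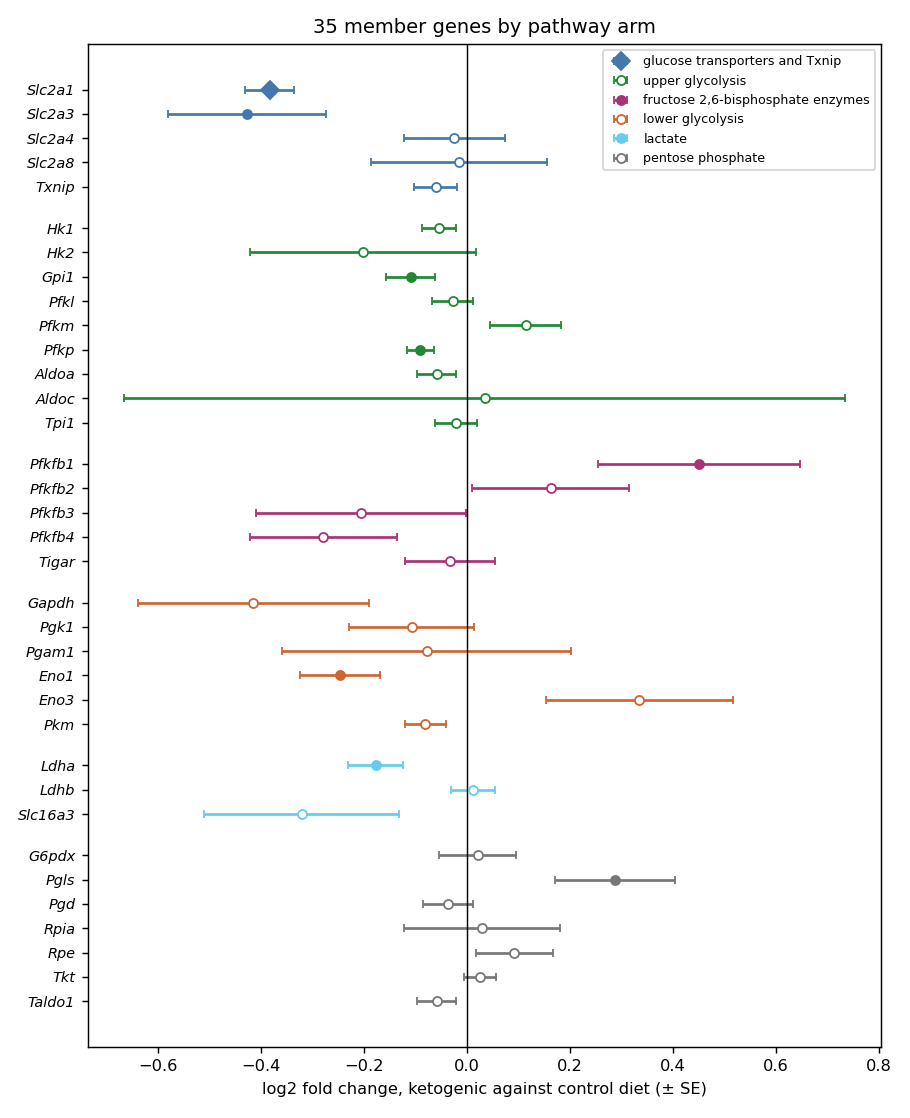
Log2 fold change, ketogenic against control diet, with its standard error for each of the 35 genes, colored by pathway arm. The filled diamond is Slc2a1, called at an adjusted p-value under 0.05, filled circles are the 7 genes with an unadjusted p-value under 0.05 only, and open circles the rest.

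Slc2a1 encodes GLUT1, which carries glucose across the plasma membrane without insulin and supplies the endothelium of many organs. It lies at chr4:119108711-119137983 on the plus strand (GRCm38), and 4.8% of its 50-base windows overlap Gm12868 on the other strand. Its counts in the control mice 1 to 5 were 1320, 1328, 1385, 1344 and 1370, and in the ketogenic mice 1 to 5 were 1138, 1024, 1081, 1020 and 1161. Every ketogenic mouse was below every control mouse, with normalized counts of at most 1123 on the ketogenic diet and at least 1266 on the control diet. The means were 1383 ± 69.1 and 1061 ± 46.9 normalized counts (SD, n = 5 each), which is 23.3% lower on the ketogenic diet. The log2 fold change was −0.38 ± 0.05 (SE, edgeR adjusted p = 0.00308).

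The call on Slc2a1 was lost when the cardiomyocyte marker score of each mouse entered the fit, although the log2 fold change stayed at −0.38 (edgeR adjusted p = 0.0718), and that fit called 27 genes in place of 213. The score itself went partly with the diet, from −1.22 to 0.19 on the control diet and from −0.58 to 1.61 on the ketogenic diet. Score and diet therefore cannot be fully told apart in that fit, here or where it is used below. The part of cardiomyocytes in the Slc2a1 difference was not tested. Without control mouse 1, which held the high macrophage signal, the log2 fold change was −0.37 (edgeR adjusted p = 0.0128).

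The 250 bases before the start of Slc2a1 and Txnip are shown because Slc2a1 is known as a hypoxia-induced gene and Txnip as a glucose-induced one. They were taken from RefSeq on GRCm38.p6, at chr4:119108495-119108744 and chr3:96557707-96557956, both on the plus strand. The RefSeq start of Slc2a1 lies downstream of the GENCODE start given above, chr4:119108711. The end of its window is therefore inside the gene as annotated in GENCODE. Capitals mark a hypoxia response core, ACGTG, 36 bases before the RefSeq start of Slc2a1, which places it across the GENCODE start. In Txnip they mark a carbohydrate response pattern, 2 boxes with at most 1 mismatch each to CACGTG and 5 free bases between them. RefSeq promoters were matched for 33 of the 35 genes.
Slc2a1: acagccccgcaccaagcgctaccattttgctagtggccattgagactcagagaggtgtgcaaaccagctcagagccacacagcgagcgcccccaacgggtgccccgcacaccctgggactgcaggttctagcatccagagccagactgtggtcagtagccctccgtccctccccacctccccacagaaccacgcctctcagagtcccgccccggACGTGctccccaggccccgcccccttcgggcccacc
Txnip: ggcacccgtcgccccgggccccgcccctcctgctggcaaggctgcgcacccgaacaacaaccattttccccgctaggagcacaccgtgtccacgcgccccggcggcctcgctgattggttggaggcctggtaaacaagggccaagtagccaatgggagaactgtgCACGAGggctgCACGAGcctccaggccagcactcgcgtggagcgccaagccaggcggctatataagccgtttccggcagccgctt

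Searched on both strands, the hypoxia core was present in 15 of the 51 promoters of these genes (29.4%) and in 16.6% of all 32851 promoters of the same length. The genes that held it were Aldoa, Hk2, Ldha, Pfkfb2, Pfkfb3, Pfkm, Pgam1, Pgk1, Pkm, Slc16a3 and Slc2a1. The E-box CACGTG, which contains the hypoxia core, was present in 4 of the 51 promoters (7.84%) and in 6.02% of all promoters. The genes that held it were Ldha, Pfkfb2, Pfkfb3 and Pfkm. The carbohydrate response pattern was found for Txnip alone among the 33 matched genes, in 1 of the 51 promoters (1.96%), and in 0.33% of all promoters. These are matches of letters, and no binding was measured.

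The other transporters were not called. Slc2a3, which encodes the high-affinity transporter GLUT3 and lies at chr6:122727809-122801640, had normalized counts of 1004, 1451, 1484, 1726 and 1171 in the control mice and 1275, 962, 1106, 762 and 982 in the ketogenic mice. Control mouse 1 was below ketogenic mice 1 and 3, so the diets overlapped, and the log2 fold change was −0.43 ± 0.15 (SE, edgeR adjusted p = 0.176). Platelets carry GLUT3, and the mice with the highest and lowest Slc2a3 differed in platelet markers as well, with 8086 summed normalized counts in control mouse 4 and 2411 in ketogenic mouse 4. The part of platelets in this difference was not tested.

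Slc2a4, which encodes the insulin-responsive GLUT4, had 989 ± 49.6 normalized counts on the control diet and 973 ± 159 on the ketogenic diet. Slc2a8, for the intracellular transporter GLUT8, was the least abundant, at 118 ± 19.0 and 117 ± 26.6 normalized counts. In RPKM, which divides by gene length, Slc2a1 made up 47.8% ± 3.06 of the 4 transporters on the control diet and 44.4% ± 2.82 on the ketogenic diet. Slc2a4 made up 26.6% ± 1.88 and 31.6% ± 3.38, and Slc2a3 22.6% ± 3.64 and 20.4% ± 2.71 (SD, n = 5 each). These shares overlapped between the diets and are given without a test. They rest on the authors' gene lengths. Counts per mouse were 1020 to 1385 for Slc2a1, 784 to 1640 for Slc2a3 and 786 to 1159 for Slc2a4. The transcripts chosen here for these genes hold 3260, 3959 and 2524 bases in that order.

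Txnip encodes an arrestin-like protein that is induced by glucose and draws GLUT1 from the cell surface, and lies at chr3:96557957-96561883. Its counts hardly varied. They were 4264, 4299, 4285, 4267 and 4280 in the control mice and 4266, 4313, 4282, 4298 and 4315 in the ketogenic mice, a coefficient of variation of 0.438% while the total counts of the libraries varied by 4.77%. The variance within a diet was 0.0743 of the mean, where counting error alone would give 1. The chosen transcript offers 4188 possible read starts. These are the 50-base windows that touch no exon of another gene and occur in no transcript of another gene, counted on both strands. Txnip held 102% to 103% of them. The log2 fold change was −0.06 ± 0.04 (SE, edgeR adjusted p = 0.465). A count at this number of starts could not show a further rise in the transcript if only 1 read per start was kept. Part of Txnip, 23.7% of its windows, is overlapped by Gm15441 on the other strand.

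**Figure D2:**
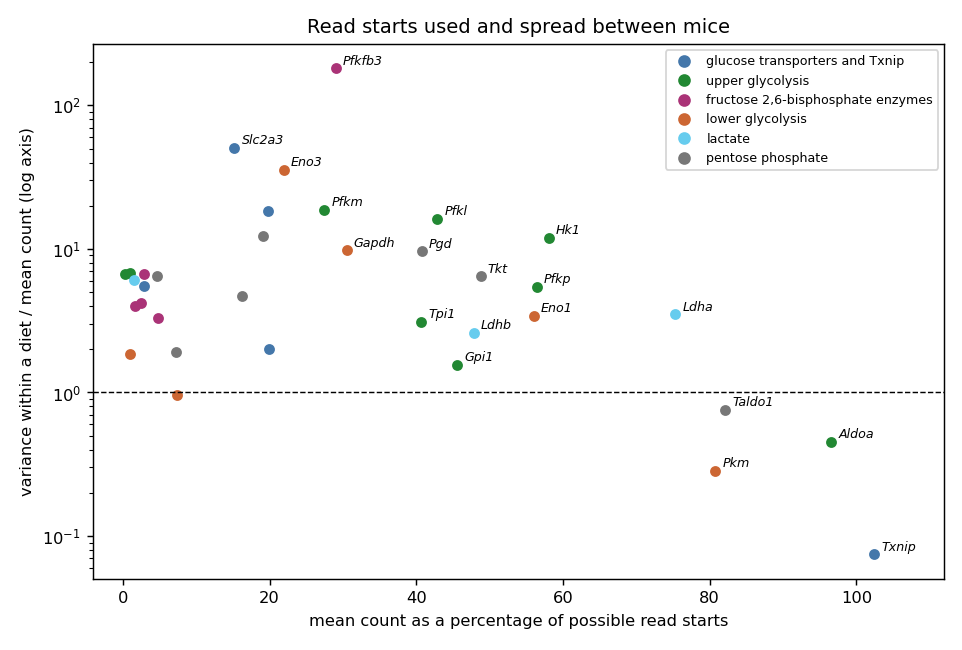
Mean count as a percentage of the possible read starts (horizontal axis) against the variance of the counts within a diet divided by their mean (vertical axis, logarithmic) for each of the 35 genes, colored by arm. The dashed line at 1 is the variance of counting error alone, and Txnip, Aldoa, Pkm and Taldo1, at 80.8% or more of their starts, lie below it, as does Pgk1, at 7.36% of its starts, with 0.959.

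Other abundant genes also used most of their starts. The percentages below for Aldoa, Taldo1, Pkm and Ldha would be lower if windows shared with other transcripts were counted as starts. Aldoa was at 96.6% of its possible starts, Taldo1 at 82.1%, Pkm at 80.8% and Ldha at 75.3%, and the variance of the first 3 was 0.453, 0.758 and 0.283 of the mean. That of Ldha was 3.50 times the mean, above counting error. In the whole table, 240 of the 3771 genes with a mean of at least 1000 counts had a variance within a diet below the mean. Slc2a1, in contrast, used 16.7% to 22.7% of its 6114 starts. When counts were corrected for the starts already used, a setting chosen after seeing the data, its log2 fold change was −0.43 (edgeR adjusted p = 0.00337). That correction counted shared windows as starts and left genes close to or above their number of starts uncorrected. No source used here states whether reads with the same start were removed.

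Among the enzymes of upper glycolysis, 7 of 9 genes had a log2 fold change below 0 and 2 above, and none was called. Aldoa, near its number of possible starts, was among the 7. The hexokinases differed widely in level. Hk1, the constitutive isoform that binds mitochondria, made up 95.2% ± 0.850 of hexokinase RPKM on the control diet and 95.7% ± 1.21 on the ketogenic diet. Its normalized counts were 4503 ± 71.6 and 4336 ± 202, with a log2 fold change of −0.05 ± 0.03 (SE, edgeR adjusted p = 0.425). Hk2, the isoform induced by insulin and hypoxia, had 54 to 149 counts per mouse and a log2 fold change of −0.20 ± 0.22, which was −0.03 without ketogenic mouse 3.

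Gpi1, which isomerizes glucose 6-phosphate to fructose 6-phosphate, had 1827 ± 66 normalized counts on the control diet and 1695 ± 109 on the ketogenic diet (log2 fold change −0.11 ± 0.05, edgeR adjusted p = 0.256). Of the Gpi1 windows, 25.3% also occurred in transcripts of other genes. Phosphofructokinase has 3 genes. Pfkp, the platelet-type subunit, had normalized counts of 3937, 3770, 3937, 3892 and 3958 in the control mice and 3745, 3670, 3653, 3680 and 3564 in the ketogenic mice. Every ketogenic mouse was below every control mouse, but by a small step, a log2 fold change of −0.09 ± 0.03 (edgeR adjusted p = 0.109). Pfkp used 56.4% of its possible starts, and 18.3% of its windows overlapped Pitrm1 on the other strand.

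Pfkl, the liver-type subunit, had a log2 fold change of −0.03 ± 0.04 and Pfkm, the muscle-type subunit, one of 0.11 ± 0.07 (edgeR adjusted p = 0.760 and 0.415). In RPKM, Pfkl made up 44.1% ± 2.24 of the family on the control diet and 42.7% ± 1.66 on the ketogenic diet. Pfkm made up 37.7% ± 2.57 and 40.4% ± 2, and Pfkp 18.2% ± 0.831 and 16.9% ± 0.592. These shares rest on the authors' gene lengths, so the order of the 3 genes is uncertain. Pfkp had 3511 to 3955 counts per mouse, Pfkl 2874 to 3526 and Pfkm 1196 to 1817. The transcripts chosen here hold 4145 bases for Pfkp, 3730 for Pfkl and 2879 for Pfkm.

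Aldoa, the main aldolase, had 99.4% of aldolase RPKM on the control diet and 99.3% on the ketogenic diet, and 2241 to 2349 counts per mouse. Aldoc, the brain-type aldolase, had 0 to 25 counts per mouse and a log2 fold change of 0.03 ± 0.70, too few reads for any but a large difference to be seen. Tpi1, which interconverts the triose phosphates, had 1153 ± 28.8 and 1137 ± 45.6 normalized counts (log2 fold change −0.02 ± 0.04).

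The enzymes that make and remove fructose 2,6-bisphosphate moved in both directions and none was called. Pfkfb3, the isoform with the highest kinase activity and a driver of endothelial sprouting (chr2:11471433-11554077), ranged widely among mice of 1 diet. Its normalized counts were 1652, 2453, 2764, 4151 and 3180 in the control mice and 1793, 2775, 2673, 2842 and 2236 in the ketogenic mice. All 5 ketogenic mice lay within the control range, and the log2 fold change was −0.21 ± 0.20 (SE, edgeR adjusted p = 0.631). It was −0.03 without control mouse 4, −0.35 without control mouse 1 and −0.61 with the cardiomyocyte score in the fit. The variance within a diet was 181 times the mean, the highest ratio of the 35 genes. Pfkfb3 held 75.9% ± 6.19 of the PFKFB RPKM on the control diet and 73.9% ± 3.45 on the ketogenic diet.

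Pfkfb1, the liver and muscle isoform, had normalized counts of 46.4, 50.5, 45.5, 44.2 and 49.3 in the control mice and 59.2, 64.8, 45.2, 98.1 and 55.6 in the ketogenic mice. Ketogenic mouse 3 was inside the control range and mouse 4 was well above the rest, with a log2 fold change of 0.45 ± 0.20 (SE, edgeR adjusted p = 0.255). Pfkfb2, the heart isoform, had a log2 fold change of 0.16 ± 0.15, Pfkfb4 one of −0.28 ± 0.14 (edgeR adjusted p = 0.332) and Tigar, which removes fructose 2,6-bisphosphate, one of −0.03 ± 0.09. Of the windows of Pfkfb2, 28.5% overlapped Gm29427 and Yod1.

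In lower glycolysis, 5 of 6 genes had a log2 fold change below 0 and none was called, but 4 of them share much of their sequence with other genes. Gapdh, which oxidizes glyceraldehyde 3-phosphate and is used as a reference gene, had 70 to 211 counts per mouse. Of its 1371 windows of 50 bases, 82.5% also occurred in transcripts of other annotated genes, 222 genes in all. The share was 72.2% for Eno1, 68.0% for Pgk1 and 41.5% for Pgam1. It was 34.4% for Pkm. One such window of the Gapdh coding sequence, chr6:125162898-125162947 on the minus strand (GRCm38), is shown because it occurred unchanged in 84 other genes.
Gapdh window: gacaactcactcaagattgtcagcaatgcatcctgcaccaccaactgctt

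The Gapdh normalized counts were 161, 201, 158, 156 and 163 in the control mice and 104, 203, 68.7, 121 and 134 in the ketogenic mice. Ketogenic mouse 2 was above all others and the other 4 were below every control mouse. The log2 fold change was −0.41 ± 0.22 (SE, edgeR adjusted p = 0.360). It was −0.65 without ketogenic mouse 2 (edgeR adjusted p = 0.0743), −0.25 without ketogenic mouse 3 and −0.20 with the cardiomyocyte score in the fit. Pgk1, which makes the first ATP of glycolysis, had 87.0 ± 2.90 normalized counts on the control diet and 80.8 ± 11.4 on the ketogenic diet. Pgam1, the general phosphoglycerate mutase, had 12 to 32 counts per mouse. The levels of these 3 genes and of Eno1 are uncertain, since reads that match several genes could be lost or split.

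Eno1, the general enolase (chr4:150236721-150248879), had normalized counts of 767, 644, 668, 616 and 662 in the control mice and 596, 620, 488, 570 and 554 in the ketogenic mice. Only control mouse 4 and ketogenic mouse 2 crossed, by 616 against 620. The log2 fold change was −0.25 ± 0.08 (SE, edgeR adjusted p = 0.134), and −0.19 without control mouse 1 (edgeR adjusted p = 0.244). Eno3, the muscle enolase, went the other way in value, with 562, 508, 823, 408 and 632 normalized counts in the control mice and 515, 768, 932, 726 and 757 in the ketogenic mice (log2 fold change 0.33 ± 0.18, edgeR adjusted p = 0.361). Eno3 was highest in ketogenic mouse 3, which also had the most cardiomyocyte signal, 10518 summed normalized counts. With the cardiomyocyte score in the fit, the Eno3 log2 fold change was −0.13 and that of Eno1 −0.14.

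Eno1 made up 32.2% ± 5.19 of Eno1 and Eno3 RPKM on the control diet and 24.0% ± 5.13 on the ketogenic diet, a share that is understated where its reads match other genes. Pkm, pyruvate kinase, had 2521 ± 99.7 and 2384 ± 102 normalized counts. Its log2 fold change was −0.08 ± 0.04 (edgeR adjusted p = 0.314), near its ceiling of read starts. Its mean RPKM, 80.9, was the highest of the 35, a rank that rests on the authors' gene lengths. Txnip had 4264 to 4315 counts per mouse on a chosen transcript of 2795 bases, and Pkm 2422 to 2506 on one of 2432 bases.

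**Figure D3:**
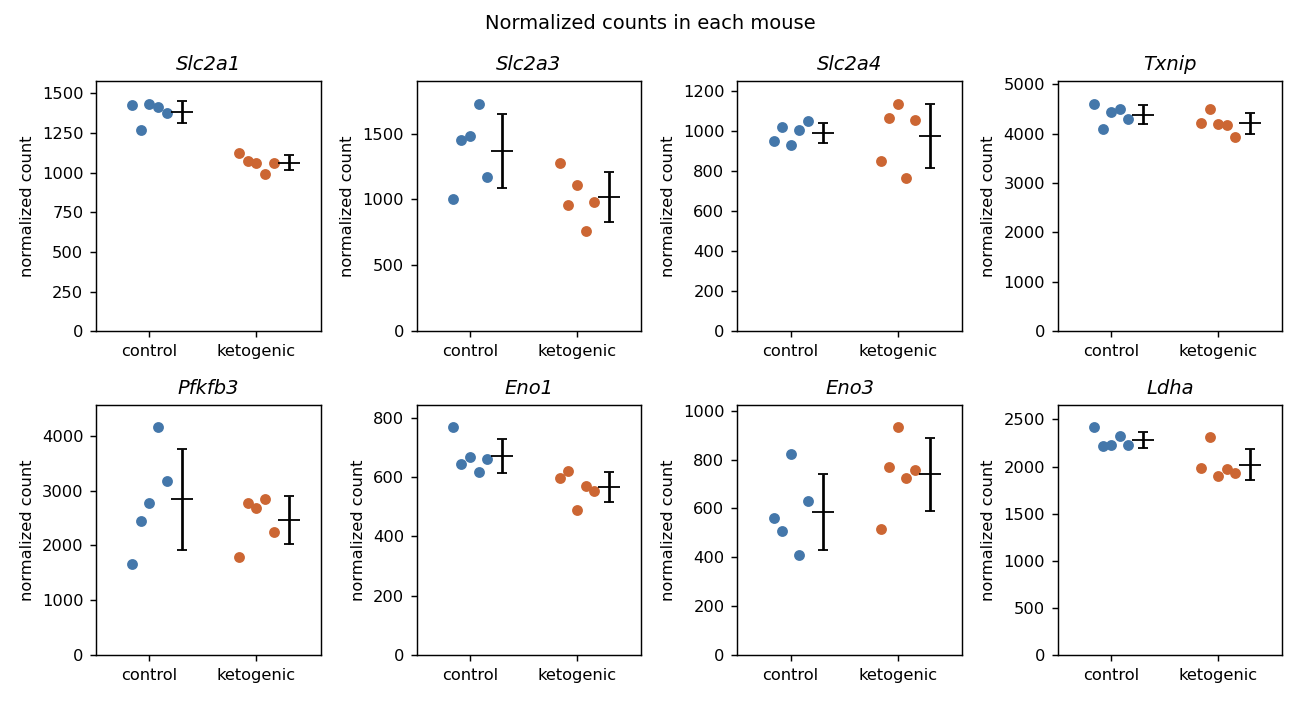
Normalized counts of 8 genes in each mouse, on axes that start at 0, with control mice in blue and ketogenic mice in orange, and the mean and SD of each diet (n = 5) as a black bar beside the points. Slc2a1 has no overlap between the diets, while Txnip is at 102% and Ldha at 75.3% of the possible read starts.

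Among the lactate genes, Ldha, the dehydrogenase subunit that favors lactate formation (chr7:46841475-46855627), had normalized counts of 2414, 2219, 2227, 2326 and 2223 in the control mice and 1985, 2309, 1901, 1972 and 1928 in the ketogenic mice. Ketogenic mouse 2 lay inside the control range and the other 4 were below it. The log2 fold change was −0.18 ± 0.05 (SE, edgeR adjusted p = 0.117). Without ketogenic mouse 2 it was −0.23 (edgeR adjusted p = 0.0126), and Ldha was not called with any other mouse left out. DESeq2 on all mice gave −0.17 (adjusted p = 0.0485). Ldhb, the subunit that favors pyruvate formation, had 873 ± 12.7 and 880 ± 33.1 normalized counts. Ldha made up 54.0% ± 1.27 of both subunits' RPKM on the control diet and 50.7% ± 2.19 on the ketogenic diet. Of the windows of Ldha, 17.1% also occurred in transcripts of other genes, and of those of Ldhb, 27.0%. Slc16a3, which encodes the lactate exporter MCT4, had a log2 fold change of −0.32 ± 0.19 at 68 to 166 counts per mouse (edgeR adjusted p = 0.402).

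In the pentose phosphate pathway, 5 of 7 genes had a log2 fold change above 0 and none was called. G6pdx, whose enzyme commits glucose 6-phosphate to the pathway, had 727 ± 71.5 normalized counts on the control diet and 737 ± 53.0 on the ketogenic diet. It was highest in control mouse 1, at 833, and in ketogenic mouse 4, at 831. Pgls, the lactonase of the next step, had normalized counts of 109, 130, 98.3, 106 and 107 in the control mice and 115, 157, 125, 142 and 133 in the ketogenic mice. Control mouse 2 was above ketogenic mice 1 and 3, and the log2 fold change was 0.29 ± 0.12 (SE, edgeR adjusted p = 0.221). Fam129c covers 20.6% of all annotated Pgls exons on the same strand, but overlaps 0.0% of the 50-base windows of the chosen transcript.

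Pgd, which releases carbon dioxide and NADPH, had a log2 fold change of −0.04 ± 0.05. Rpia and Rpe, which interconvert the pentose phosphates, had 0.03 ± 0.15 and 0.09 ± 0.07. Tkt, transketolase, had 3020 ± 105 and 3073 ± 43.8 normalized counts and a log2 fold change of 0.02 ± 0.03, at 48.8% of its possible starts. With counts corrected for the starts already used, the Tkt log2 fold change was 0.05. Taldo1, transaldolase, had −0.06 ± 0.04, close to its limit of read starts.

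For each arm, a score per mouse was the mean z-score of its genes' log2 CPM over the 10 mice. The score of the transporters and Txnip was 0.42 ± 0.36 on the control diet and −0.42 ± 0.47 on the ketogenic diet. Upper glycolysis scored 0.31 ± 0.49 and −0.31 ± 0.49, lower glycolysis 0.32 ± 0.28 and −0.32 ± 0.51, and lactate 0.35 ± 0.18 and −0.35 ± 0.53. The score of fructose 2,6-bisphosphate turnover was 0.01 ± 0.63 and −0.01 ± 0.69, and that of the pentose phosphate pathway −0.10 ± 0.55 and 0.10 ± 0.20 (SD, n = 5 each). In every arm the ranges of the diets overlapped. The scores give each gene equal weight, so genes at their ceiling or with few reads count as much as Slc2a1, and they are given without a test.

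**Figure D4:**
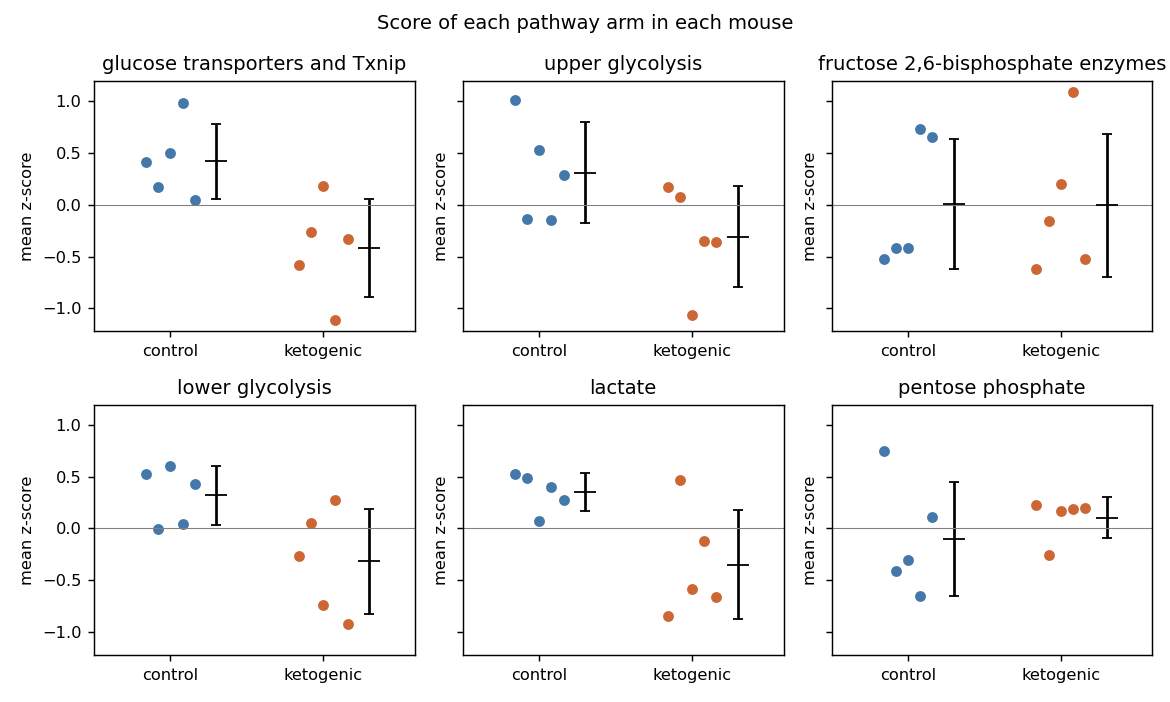
Mean z-score of the genes of each arm in each mouse (control diet blue, ketogenic diet orange), with the mean and SD of each diet (n = 5) as a black bar. The transporter score has the widest gap between the means, 0.42 against −0.42, and every arm overlaps between the diets.

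Of 83 further genes of glucose use listed by role, 81 were found, 61 passed the filter on low counts and 2 were called, both higher on the ketogenic diet. These are 3.28% of the 61, against the 1.34% of all tested genes given above. Pgam2, the muscle phosphoglycerate mutase (chr11:5801640-5803733), had normalized counts of 323, 320, 381, 306 and 328 in the control mice and 405, 438, 570, 438 and 482 in the ketogenic mice. Every ketogenic mouse was above every control mouse (log2 fold change 0.49 ± 0.10, edgeR adjusted p = 0.0375). Fbp2, the muscle fructose bisphosphatase (chr13:62836877-62858422), had 17.3, 30.5, 36.2, 21.1 and 28.2 in the control mice and 47.4, 62.7, 129, 62.2 and 55.6 in the ketogenic mice, again without overlap (log2 fold change 1.41 ± 0.30, edgeR adjusted p = 0.0434). Both are known as muscle isozymes, and both were highest in ketogenic mouse 3. With the cardiomyocyte score in the fit, their log2 fold changes were 0.27 and 0.69 (edgeR adjusted p = 0.378 and 0.436). Leaving out any 1 mouse gave adjusted p-values of 0.0316 to 0.0857 for Pgam2 and 0.0387 to 0.0909 for Fbp2.

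**Figure D5:**
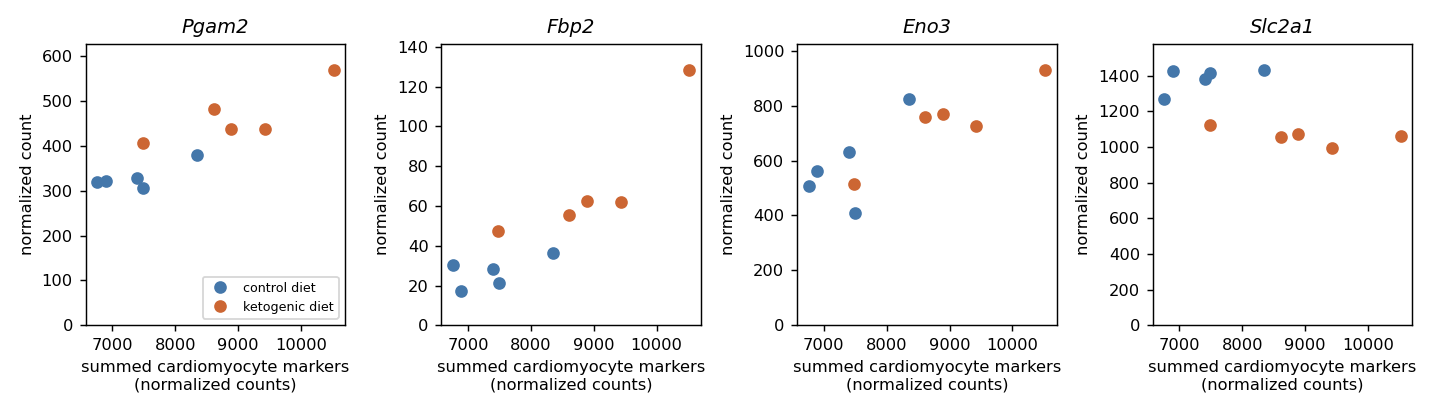
Normalized counts of Pgam2, Fbp2, Eno3 and Slc2a1 in each mouse (vertical axes, from 0) against the summed normalized counts of 10 cardiomyocyte markers (horizontal axes), with control mice in blue and ketogenic mice in orange. The first 3 genes are highest in the mouse with the most cardiomyocyte signal, 10518, and Slc2a1 is lower in each ketogenic mouse than in every control mouse.

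The other genes by role gave no call. Among 5 tested hexose transporters, Slc2a9, a urate and hexose transporter, had 308 ± 45.2 and 471 ± 85.7 normalized counts (log2 fold change 0.61 ± 0.14, edgeR adjusted p = 0.0554). Slc2a13, a myo-inositol transporter, had a log2 fold change of 0.90 ± 0.35 at 10.5 ± 4.82 and 19.9 ± 6.02 normalized counts (edgeR adjusted p = 0.207). Among 13 tested regulators, Hif1a, the oxygen-regulated subunit of HIF-1, had 650 ± 49.6 and 815 ± 83.7 normalized counts without overlap between the diets (log2 fold change 0.33 ± 0.08, edgeR adjusted p = 0.0658). Ppargc1a, a coactivator of mitochondrial genes, had a log2 fold change of 0.52 ± 0.15 (edgeR adjusted p = 0.112). Regulators went both ways. At an unadjusted edgeR p-value under 0.05, 3 of the 13 were lower (23.1%, against 9.26% of all tested genes) and 4 higher (30.8%, against 8.57%).

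Among 6 pyruvate and lactate carriers, Mpc2, a subunit of the mitochondrial pyruvate carrier, had 522 ± 20.6 and 594 ± 19.1 normalized counts (log2 fold change 0.19 ± 0.05, edgeR adjusted p = 0.101). Emb, a partner of lactate transporters, had a log2 fold change of −0.26 ± 0.12 (edgeR adjusted p = 0.278). In the 9 other pentose phosphate genes, the smallest p-value was that of Pgm2l1 (log2 fold change −0.17 ± 0.07, edgeR adjusted p = 0.201). In 11 glycogen genes it was that of Ugp2 (0.16 ± 0.06, edgeR adjusted p = 0.203).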

How the data were processed

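Raw counts per gene and mouse were deposited by the authors, together with RPKM values, in which the authors divided these counts by gene length and by the total reads counted in the mouse. Per the labels, the submitters' processing notes list bcl2fastq 2.17.1.14, STAR 2.3, HTSeq 0.6.0 and build mm10. The strand setting, the annotation release and any removal of duplicate reads are not given in the sources used here. Identifiers were matched to GENCODE M21 without regard to version (46488 of 46983, and 23 of the 35 genes with the same version). Counts were normalized by TMM and tested with edgeR 4.0.16 in R 4.3.3, with filterByExpr at its default settings and a prior count of 2 for log2 CPM. Alternatives were other size factors, other filters, DESeq2 1.42.0, limma 3.58.1 on log2(RPKM + 1 or 0.1), the replicate number as a block, the cardiomyocyte score as a covariate and each mouse left out. Shared windows were searched in annotated transcripts only. Genes named are the 35, further pathway genes that were called or had the 2 smallest p-values of their list, and markers with their list. The 35 genes and all lists were chosen with earlier results of these data known. The tests were run on simulated data first.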

Additional observations from a re-analysis of the deposited data

Results flagged for a closer look

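Of 82 sets of 5 mice examined, one per diet for each of the 35 genes and 6 arm scores, 4 held a mouse far from the other 4, with a gap to its neighbor of over 0.71 of the range. Chance gives about 1 in 20, or 4.1 sets. Gapdh was high in control mouse 2 (201 normalized counts), Ldha was high in ketogenic mouse 2 (2309 normalized counts) and G6pdx was high in ketogenic mouse 4 (831 normalized counts). The pentose phosphate score was low in ketogenic mouse 2 (−0.25).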

How the results depend on the processing

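Slc2a1 was called with every normalization, filter and tool tried and with any 1 mouse left out, but not with the cardiomyocyte score as a covariate. Called genes numbered 213 (1 of the 35), 816 with DESeq2 (2 of the 35, Slc2a1 and Ldha) and 27 with the covariate (0 of the 35). With a mouse left out, called genes numbered 86 to 492 and called genes of the 35 numbered 1 to 2, with 492 and 2 without ketogenic mouse 2 and 86 without control mouse 2. With library size alone 152 were higher and 72 lower, and with upper quartile factors 101 were higher and 86 lower, against 129 and 84. Same-numbered mice did not deviate together, with correlations of −0.13 to 0.09, and the replicate block called 113 genes, 90 of them shared, with Slc2a1 at −0.38 (edgeR adjusted p = 0.0277).

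Log2 fold changes that changed sign were, with the covariate, 0.016 for Hk1, 0.0028 for Hk2, 0.041 for Pfkl, 0.030 for Tpi1, −0.22 for Pfkfb2, −0.13 for Eno3, −0.039 for Ldhb, 0.0057 for Slc16a3 and −0.0056 for G6pdx. Ldhb was −0.0039 with upper quartile factors, and Aldoc was −0.017 with limma on log2(RPKM + 0.1) and −0.023 with the block. With a mouse left out, values ran from −0.080 to 0.052 for Slc2a4, −0.10 to 0.071 for Slc2a8, −0.27 to 0.36 for Aldoc, −0.060 to 0.025 for Tigar, −0.32 to 0.077 for Pgam1, −0.0025 to 0.030 for Ldhb, −0.025 to 0.074 for G6pdx and −0.035 to 0.13 for Rpia. With the length of all annotated exons in place of the authors' gene length, the shares were 43.7% and 40.04% for Slc2a1, 39.3% and 38.2% for Pfkl, 82.5% and 81.2% for Pfkfb3, 96.3% for Hk1 (control) and 55.4% for Ldha (control). The causes were not tested.

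Depth limits Aldoc, Pgam1, Pfkfb1, Pgk1 and Hk2, which had under 150 counts in each mouse, and the number of read starts limits Txnip, Aldoa, Pkm and Taldo1.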
